A study of Mus musculus with 10 samples.

Results

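The 42 genes described here are immediate early genes, feedback genes that rise with them, and heat shock genes. They were taken by symbol from the table of 27179 genes counted in 5 cell populations sorted from mouse mammary gland, and all 42 were found and passed the filter on low counts, which left 15681 genes. The mice were adult virgin females of the C57BL/6 strain. Each population has 2 libraries that the labels call biological replicates; whether mice were pooled is not stated there, nor are sort gates beyond CD11b and CD103. The populations are macrophages of the milk ducts (ductal), macrophages of the tissue around them (stromal), CD11b+ dendritic cells, and 2 kinds of CD11b- dendritic cell, those with CD103 (CD11b-CD103+, here CD103+) and those without (CD11b-CD103-, here CD103-). No treatment was given to any group, so that every comparison is between cell types taken from the same tissue, after it was taken apart and sorted.

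Immediate early genes are switched on within minutes of a stimulus by transcription factors that are already in the cell, without new protein synthesis. Many encode transcription factors (the AP-1 proteins FOS and JUN, the EGR and NR4A families), and others encode proteins that shut the response off again, such as the phosphatases of MAP kinases, the mRNA-destabilizing protein ZFP36 and the inhibitors of NF-kB. Heat shock genes encode chaperones and are driven by heat shock factor 1 when proteins misfold. In macrophages and dendritic cells these genes respond to microbial products and cytokines, and they are also known to rise while tissue is digested and cells are sorted.

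Total counts were 5636092 and 6388106 in the ductal libraries and between 5745085 and 23093742 in the other 8. Macrophage genes marked the macrophages: the complement genes C1qa, C1qb and C1qc stood at 3952 to 4753 CPM in the ductal libraries and at 1329 to 2448 CPM in the stromal libraries, against at most 152.9 CPM in any dendritic cell library. CPM here take the TMM-adjusted total as the library size. The dendritic cell genes Flt3, Xcr1 and Clec9a were high in both CD11b- populations (159.8 to 520.2 CPM). The CD11b+ cells, called so below, had mixed markers, and they are counted among the dendritic cells by their label alone. The monocyte marker Ccr2 was at 1407 and 1014 CPM there, against 59.2 to 450 CPM in the other libraries. A sum over 11 dendritic cell markers was 2320 and 1711 CPM there, against 404 to 623 CPM in macrophages and 2904 to 4522 CPM in CD11b- cells, with Cd209a (1198 and 763 CPM) and Irf4 (89.2 and 55.5 CPM) higher than in all other libraries and Flt3 low (16.8 and 18.1 CPM). A sum over 10 macrophage markers was 4608 and 4376 CPM, against 7367 to 25515.9 CPM in macrophages and 601 to 1832 CPM in CD11b- cells, with Csf1r at 551 and 566 CPM and Fcgr1 at 2.54 and 2.69 CPM. Replicate 2 of the CD103- cells stood apart with the B cell gene Ms4a1 at 90.8 CPM, against at most 7.53 CPM in any other library. Mitochondrially encoded genes took 24.8% and 23.1% of stromal counts and 0.631% to 6.29% elsewhere, the ductal libraries being lowest at 0.631% and 0.891%. Differences in bulk RNA of sorted cells do not tell fewer cells with a transcript from less transcript per cell.

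As a share of their counts, ductal macrophages had the least of these transcripts and stromal macrophages the most. Together the 42 genes took 1.72% and 1.75% of the counts of ductal libraries, 4.31% and 3.89% in stromal libraries, 3.24% and 2.92% in CD11b+ cells, 3.37% and 2.73% in CD103+ cells and 3.33% and 2.43% in CD103- cells. On the TMM scale their sum was 22120.5 and 21174.6 CPM in ductal libraries, 54994.2 and 40430.7 CPM in stromal libraries and 19839.7 to 35305.6 CPM in dendritic cell libraries. The stromal libraries stayed apart on that scale, whereas the lowest library was CD103- replicate 2. By population mean, 26 of the 42 genes were lowest in ductal macrophages and 18 were highest in stromal macrophages, while over all genes tested 27.4% were lowest in ductal and 26.6% highest in stromal macrophages. A further 12 were highest in CD11b+ cells, 7 in CD103+ cells and 5 in ductal macrophages, beside 19.0%, 16.6% and 21.3% of all genes tested. The CD103+ count was thus near the share of all genes. In CD103- cells 10 of the 42 genes were lowest and 0 highest, beside 13.3% and 16.5% of all genes tested. In edgeR's quasi-likelihood test, 34 of the 42 genes differed among the 5 populations at a Benjamini-Hochberg adjusted p under 0.05, beside 50.4% of all genes tested.

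**Figure D1:**
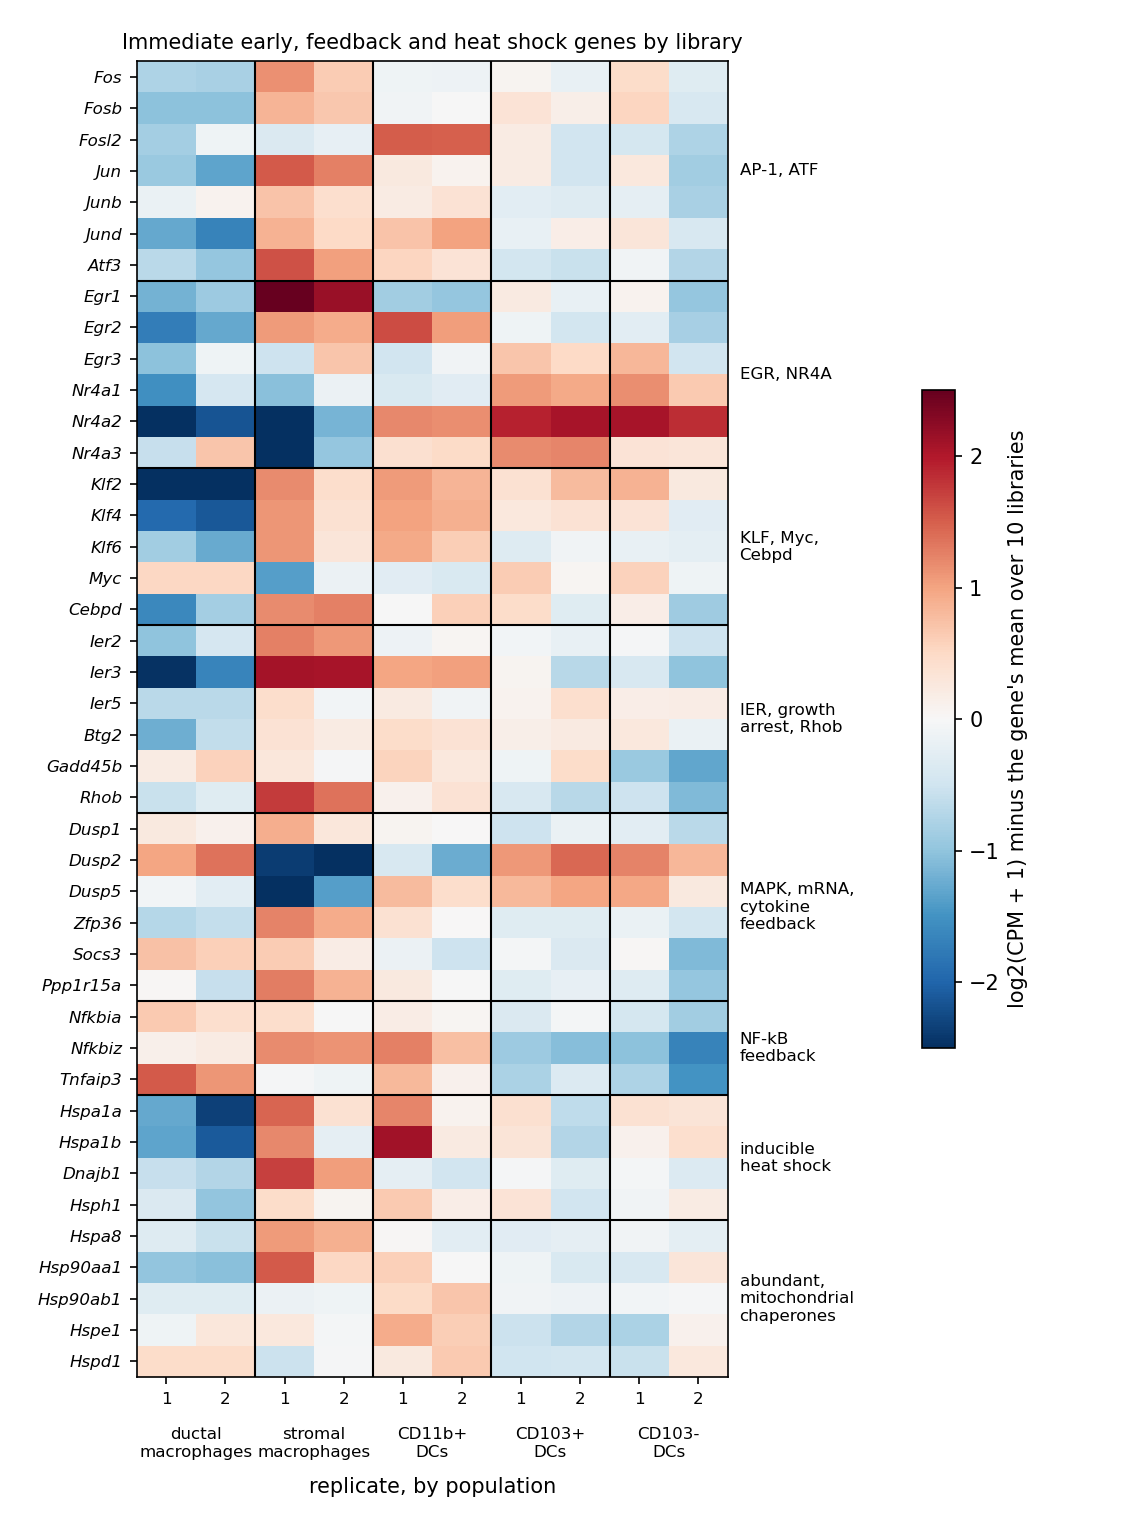
Level of each of the 42 genes in each of the 10 libraries, as log2(CPM + 1) minus the gene's mean over the libraries, with genes in rows by role and libraries in columns by population; values beyond the ends of the scale take the end colours. Most genes are blue in the ductal columns and red in the stromal columns, while Nr4a2, Nr4a3, Dusp2 and Dusp5 are blue in the stromal columns.

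Ductal macrophages were lower than stromal macrophages for 24 of the 42 genes and higher for 5, and the other 13 were not called. Of all genes tested, 14.3% were lower and 16.3% higher in ductal macrophages, 30.6% in either direction. The median log2 fold change of the 42 genes was -1.25, and that of all genes was -0.10. The 5 that were higher in ductal macrophages were Dusp2, Dusp5, Tnfaip3, Nr4a3 and Myc, and 3 remained past the threshold without ductal replicate 1 or 2, stromal replicate 1, or CD11b+ replicate 1 or 2. With any library left out, between 20 and 25 genes were lower. Beside this difference stand others between the same libraries: the mitochondrial share above, and a sum over 6 adipocyte markers of 47.8 and 143.6 CPM in ductal against 431.6 and 720.1 CPM in stromal libraries, with Plin1 at 0 in both ductal libraries. Of the adipocyte sum, Fabp4 alone had 43.3 and 135.4 CPM in ductal against 195 and 424 CPM in stromal libraries. A sum over 7 luminal epithelial markers was 215 and 373 CPM in ductal against 824 and 1752 CPM in stromal libraries, and a sum over 6 mast cell markers was 33.9 and 29.5 CPM against 185 and 156.9 CPM. Of the mast cell sum, Kit alone had 33.3 and 25.3 CPM in ductal against 20.6 and 98.7 CPM in stromal libraries, and 172 to 248 CPM in CD11b- cells. The mast cell markers Cpa3, Mcpt4, Tpsb2 and Cma1 were higher in both stromal than in both ductal libraries. With the 15 mitochondrially encoded genes left out of the fit, 24 genes were lower and 4 higher. The part of the other cell types' transcripts in these differences was not tested.

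The comparisons that follow share their populations with that one and with each other. Against CD11b+ cells, ductal macrophages were lower for 20 genes and higher for 1, Dusp2 (11.4% and 11.9% of all genes, 23.3% in either direction), with a median log2 fold change of -0.77 against -0.05 for all genes. That count of lower genes fell to 10 without ductal replicate 1, ductal replicate 2 or CD11b+ replicate 1 and to 13 without CD11b+ replicate 2, while the higher count was 2 without stromal replicate 2, CD103- replicate 1 or CD103- replicate 2. Against the mean of both CD11b- populations, ductal macrophages were lower for 13 genes and higher for 6 (13% and 15.4% of all genes, 28.4% in either direction), with a median of -0.63 against -0.11. The 6 were Gadd45b, Socs3, Nfkbia, Nfkbiz, Tnfaip3 and Hspd1. Without ductal replicate 1 these were 5 and 2, and without ductal replicate 2 they were 7 and 3.

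Stromal macrophages were higher than CD11b+ cells for 10 genes and lower for 5 (11.6% and 14.5% of all genes), with a median of 0.12 against 0.03. The count of higher genes rested on single libraries: it was 6 without either ductal library, 5 without stromal replicate 1 and 3 without either CD11b+ library. Against the mean of the CD11b- populations, stromal macrophages were higher for 18 and lower for 6 (21% and 20.3% of all genes), with a median of 0.72 against 0.02. CD11b+ cells were higher than the CD11b- mean for 13 genes and lower for 2, Nr4a1 and Dusp2 (14% and 11% of all genes), with a median of 0.44 against -0.07. The count of higher genes was 7 without CD103+ replicate 1 or CD11b+ replicate 2 and 4 without CD11b+ replicate 1, and that of lower genes was 1 without CD103- replicate 1 or either CD11b+ library.

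Between CD103+ and CD103- cells, edgeR called 0 of the 42 genes, beside 0.0319% of all genes higher and 0% lower. At an unadjusted p under 0.05 there was 1, and DESeq2 called the same gene, Gadd45b, which encodes a growth arrest and DNA damage protein. It had 241 and 357 CPM in CD103+ cells and 135 and 105 CPM in CD103- cells, groups that did not overlap, and a log2 fold change of 1.32 ± 0.28 (SE; adjusted p = 0.206 by edgeR and 0.000706 by DESeq2).

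Taking the calls together, 10 genes were lower in ductal macrophages than in stromal macrophages, CD11b+ cells and the CD11b- mean alike: Fosb, Jund, Egr2, Klf2, Klf4, Cebpd, Ier3, Btg2, Hspa1a and Hspa1b. Of all genes, 3.03% had that pattern, and the count among the 42 was 6 without CD11b+ replicate 1 and 4 and 5 without ductal replicates 1 and 2. Also 10 genes were higher in stromal macrophages than in all 3 of ductal macrophages, CD11b+ cells and the CD11b- mean: Fos, Jun, Egr1, Ier2, Ier3, Rhob, Zfp36, Ppp1r15a, Dnajb1 and Hspa8, beside 4.76% of all genes. This count was 6 without either ductal library, 5 without stromal replicate 1 and 3 without either CD11b+ library. A further 3, Nr4a3, Dusp2 and Dusp5, were lower in stromal macrophages than in all 3, beside 5.59% of all genes. By edgeR 0 genes were higher in ductal macrophages than in all 3, beside 5.17% of all genes, whereas at an unadjusted p under 0.05, by DESeq2, and with the populations compared alone there was 1, Tnfaip3.

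**Figure D2:**
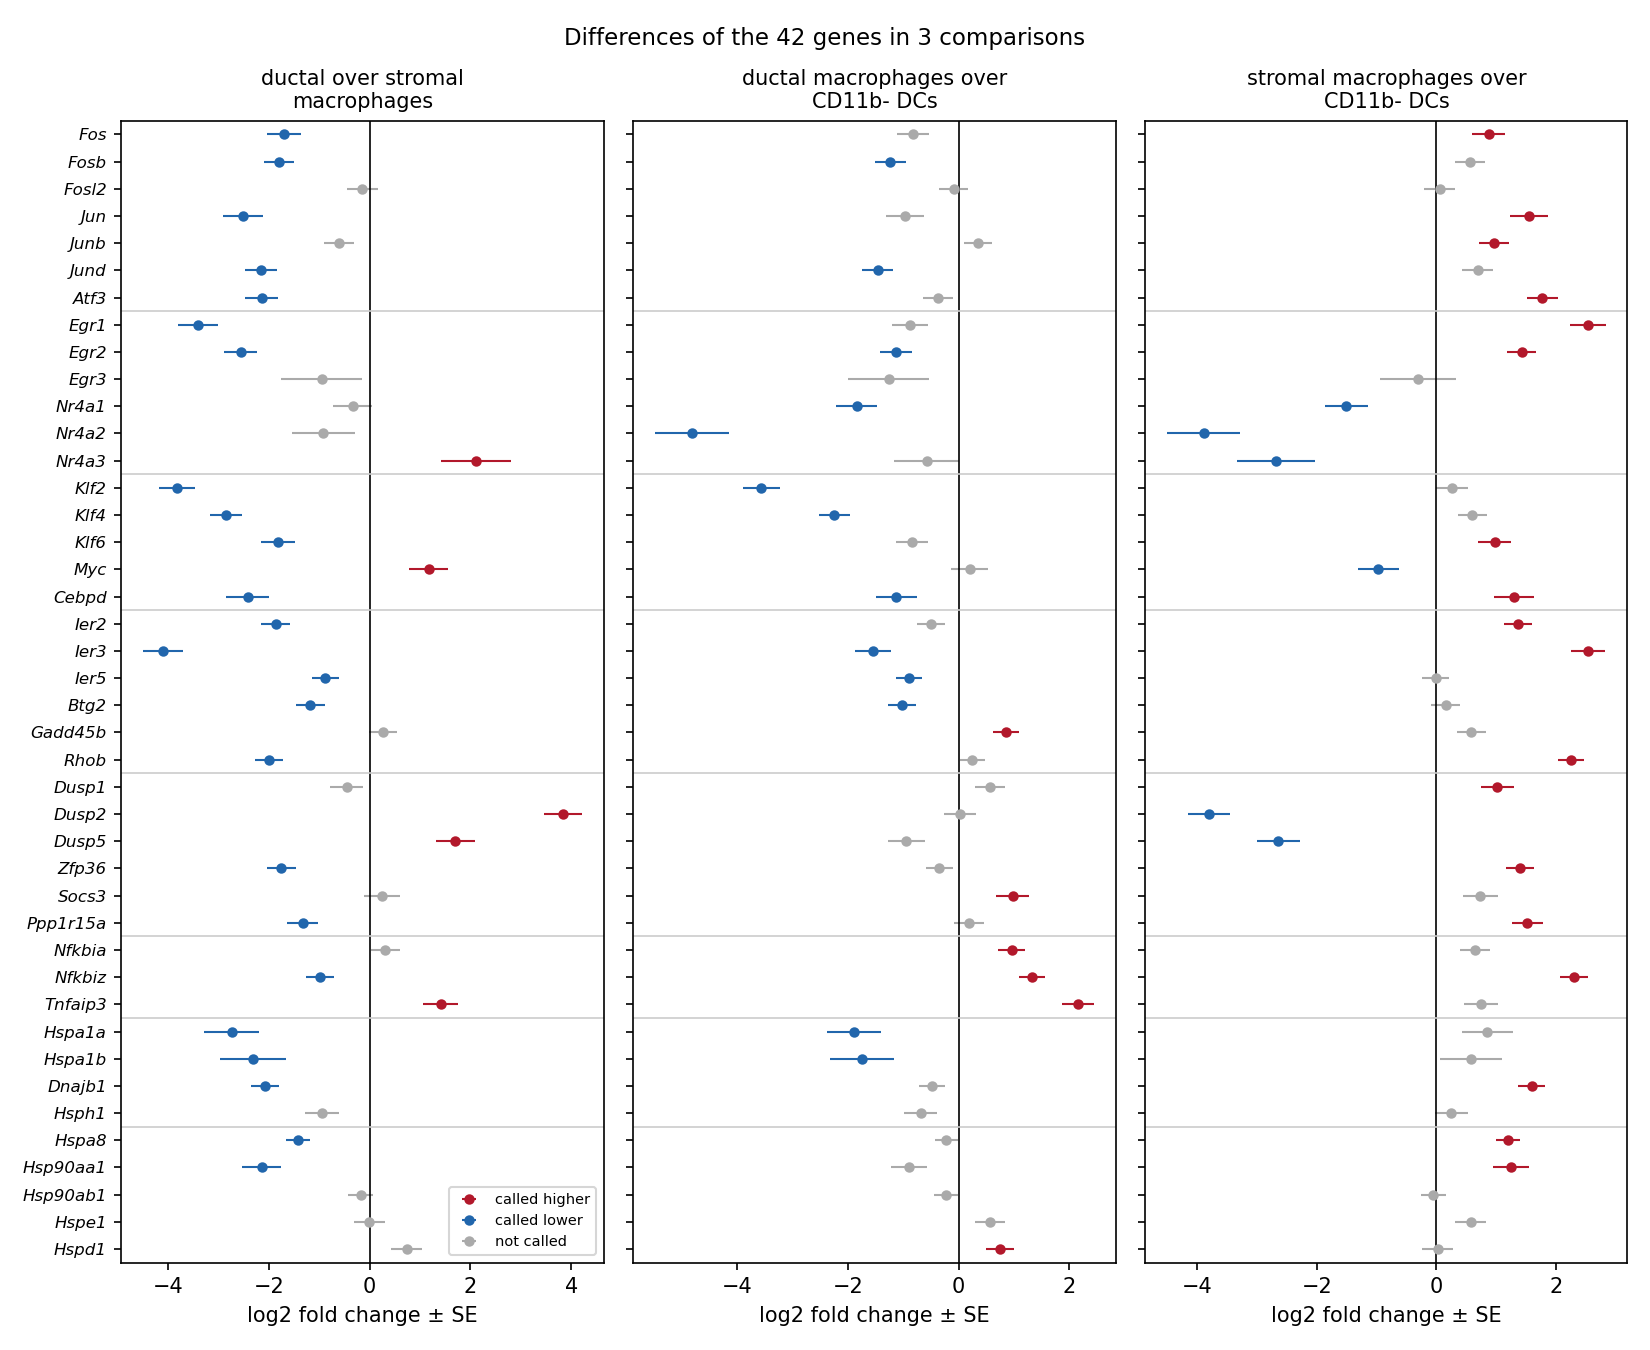
Log2 fold change (points) with a standard error back-calculated from the F statistic (bars) of each of the 42 genes in 3 comparisons of edgeR, coloured by whether the adjusted p passed 0.05 and in which direction. In the left panel 24 genes lie to the left of 0 as called lower in ductal macrophages, and in the right panel 18 are called higher in stromal macrophages than in CD11b- dendritic cells.

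Among the AP-1 and ATF genes, whose proteins pair through leucine zippers to bind AP-1 and CRE sites, 5 of 7 were called lower in ductal than in stromal macrophages and the other 2, Fosl2 and Junb, were not called. Jun had 452 and 341 CPM in ductal macrophages, 2497 and 2040.1 CPM in stromal macrophages, 1020.2 and 906 CPM in CD11b+ cells, 987 and 611 CPM in CD103+ cells and 1029 and 471 CPM in CD103- cells. Both ductal libraries were below, and both stromal libraries above, all 6 libraries of CD11b+ and CD11b- cells. Jund, which encodes the AP-1 subunit that is least dependent on stimulation, had 267 and 204 CPM in ductal macrophages, 1182 and 921 CPM in stromal macrophages, 1067 and 1304 CPM in CD11b+ cells, 570.1 and 729 CPM in CD103+ cells and 801 and 495 CPM in CD103- cells. Atf3, which encodes a stress-induced repressor, had 614 and 499 CPM in ductal macrophages, 2940.1 and 1994 CPM in stromal macrophages, 1412 and 1234 CPM in CD11b+ cells, 712 and 664 CPM in CD103+ cells and 925 and 586 CPM in CD103- cells. The ductal libraries were lowest for Jund, and for Atf3 they overlapped the CD103- libraries alone.

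The ductal minus stromal log2 fold change was -2.52 ± 0.40 for Jun (SE, 2 libraries a population; adjusted p = 0.000965), -2.16 ± 0.32 for Jund (adjusted p = 0.000595) and -2.15 ± 0.32 for Atf3 (adjusted p = 0.00063). Fos and Fosb followed at -1.70 ± 0.34 and -1.80 ± 0.30. These 5 calls held with every library left out. Stromal macrophages were also higher than the CD11b- mean for Jun, by 1.55 ± 0.32 (adjusted p = 0.00293), and for Atf3, by 1.78 ± 0.26 (adjusted p = 0.000318). The higher level of Jun in stromal macrophages than in CD11b+ cells, 1.24 ± 0.39 (adjusted p = 0.0377), was lost without either ductal library, stromal replicate 1 or either CD11b+ library (adjusted p = 0.0557 to 0.182). Fosl2 went another way. It had 338 and 332 CPM in CD11b+ cells, against 64.9 to 136 CPM in the 8 other libraries, and the CD11b+ cells were higher than the CD11b- mean by 1.85 ± 0.25 (adjusted p = 0.000397). Junb, at 1204 to 3428 CPM, did not pass the test among populations (adjusted p = 0.0535).

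The EGR zinc finger factors and the NR4A orphan receptors divided. Egr1 had 475 and 573 CPM in ductal macrophages, 6389.7 and 4793 CPM in stromal macrophages, 589.7 and 549 CPM in CD11b+ cells, 1257 and 946 CPM in CD103+ cells and 1146 and 549 CPM in CD103- cells. The stromal libraries were thus above all others, and the ductal minus stromal difference was -3.42 ± 0.40 (adjusted p = 0.000109), while ductal macrophages and CD11b+ cells differed by -0.12 ± 0.36 (adjusted p = 0.848). Stromal macrophages exceeded CD11b+ cells by 3.30 ± 0.40 (adjusted p = 0.000196) and the CD11b- mean by 2.53 ± 0.30 (adjusted p = 8.25e-05). Egr2, which takes part in macrophage differentiation, was low in ductal macrophages (11.6 and 16.3 CPM) and high in stromal macrophages (86.9 and 78.4 CPM) and CD11b+ cells (129 and 84.9 CPM), with a ductal minus stromal difference of -2.56 ± 0.32 (adjusted p = 0.00019). Egr3 was low, at 0.911 to 5.94 CPM with 4 to 133 counts a library, and the test among populations gave an adjusted p of 0.458.

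Nr4a2 had 4.78 and 16.1 CPM in ductal macrophages, 7.18 and 33 CPM in stromal macrophages, 175 and 168 CPM in CD11b+ cells, 289 and 316 CPM in CD103+ cells and 319 and 271 CPM in CD103- cells. It was low in both kinds of macrophage, and no macrophage library overlapped a library of CD11b+ or CD11b- cells. The difference from the CD11b- mean was -4.82 ± 0.66 in ductal macrophages (adjusted p = 0.000293) and -3.89 ± 0.61 in stromal macrophages (adjusted p = 0.000533), and the ductal and stromal macrophages differed by -0.92 ± 0.63 (adjusted p = 0.29). Nr4a3 had 9.79 and 25.3 CPM in ductal macrophages, 0.938 and 7.27 CPM in stromal macrophages, 20.4 and 21.5 CPM in CD11b+ cells, 35.8 and 36.7 CPM in CD103+ cells and 19.4 and 18.9 CPM in CD103- cells. Stromal macrophages were lower than the CD11b- mean by -2.68 ± 0.65 (adjusted p = 0.00732). For Nr4a3 the ductal minus stromal difference, 2.11 ± 0.70 (adjusted p = 0.0416), was lost in 10 of 17 alternatives, 8 of them left-out libraries: all but ductal replicate 1 and stromal replicate 2 (adjusted p = 0.0524 to 0.319). The stromal minus CD11b+ difference, -2.35 ± 0.69 (adjusted p = 0.0292), was lost without CD11b+ replicate 1 (adjusted p = 0.100) or 2 (adjusted p = 0.111). Nr4a1 was highest in CD11b- cells, at 523 to 738 CPM, against 113 to 296 CPM in the other populations. Ductal macrophages were lower than the CD11b- mean for Nr4a1 by -1.85 ± 0.37 (adjusted p = 0.00334, and 0.0524 without ductal replicate 1), and stromal macrophages by -1.50 ± 0.36 (adjusted p = 0.00689, and 0.0513 without stromal replicate 1).

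**Figure D3:**
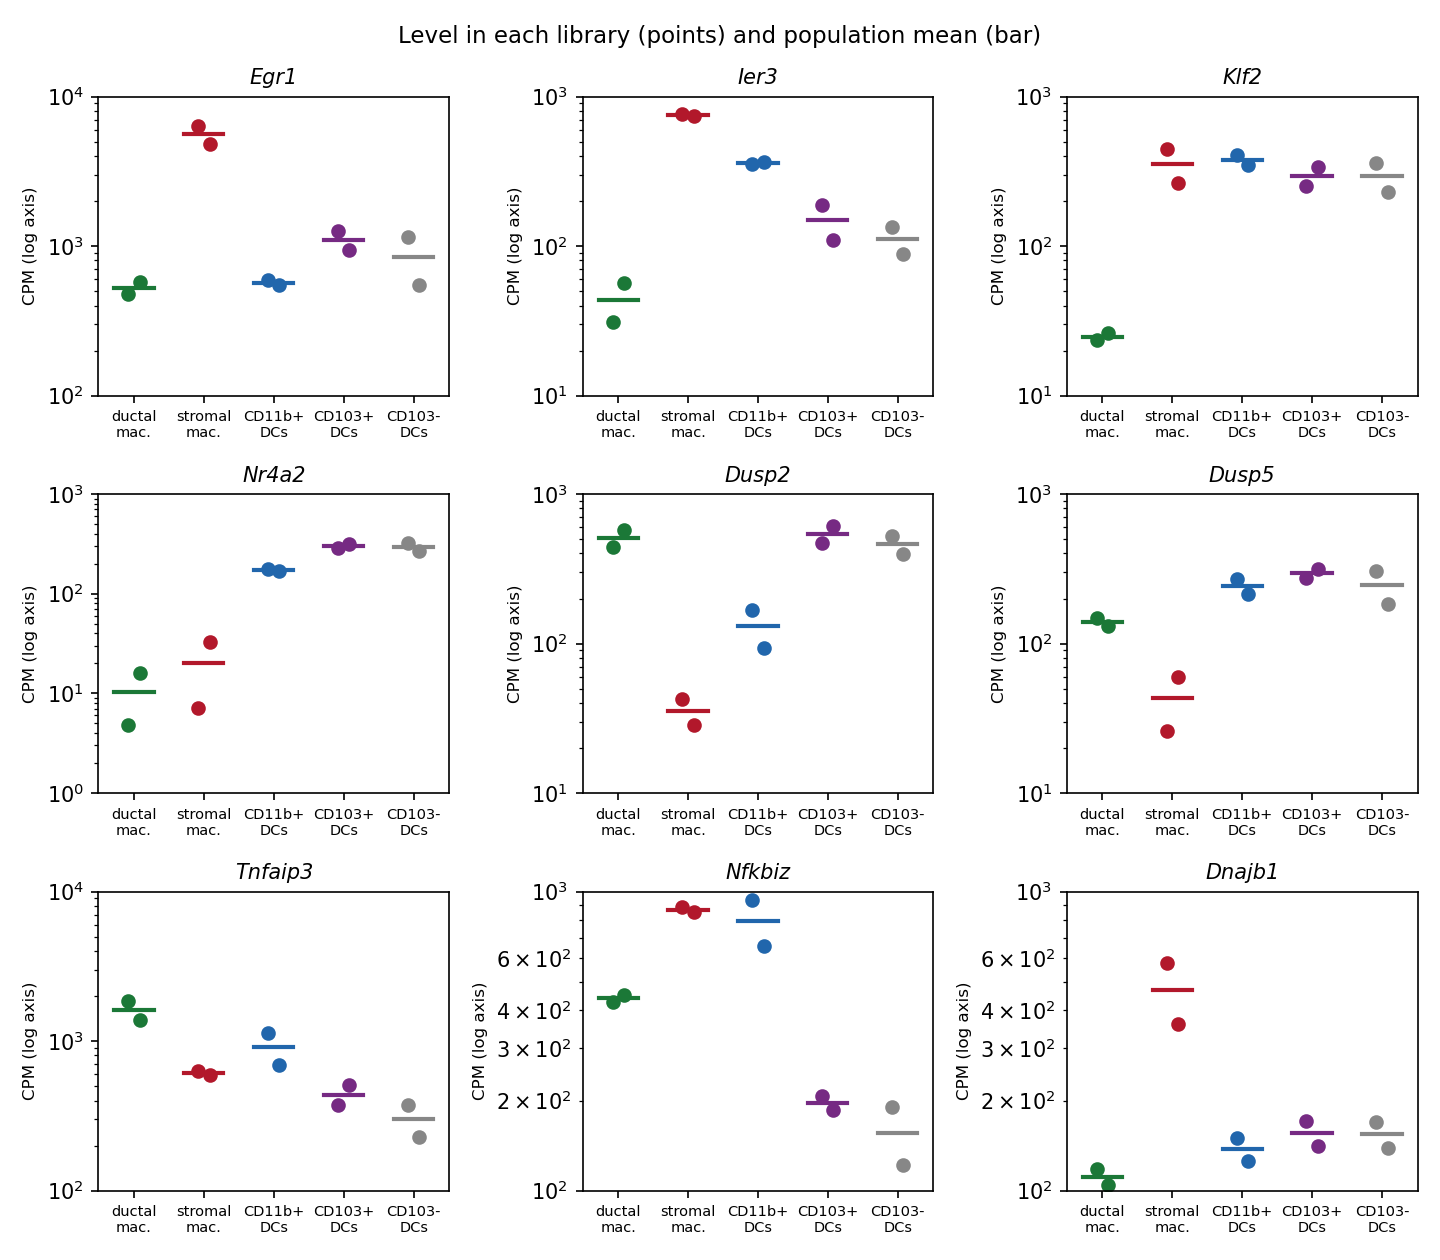
CPM of 9 of the genes in each library (points) with the population mean (bars), on log axes that differ between panels. Egr1 and Dnajb1 stand out in stromal macrophages, Klf2 is low in ductal macrophages alone, Nr4a2 is low in both macrophages, and Dusp2 and Dusp5 are lowest in stromal macrophages.

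The genes of the Krüppel-like factors KLF2 and KLF4, zinc finger factors that restrain inflammatory gene expression, were lower in ductal macrophages than in each of the populations they were set against. Klf2 (chr8:72319062-72321654, GRCm38) had 23.5 and 26.1 CPM in ductal macrophages, 443 and 262 CPM in stromal macrophages, 405 and 349.7 CPM in CD11b+ cells, 252 and 338 CPM in CD103+ cells and 357 and 231 CPM in CD103- cells. Its ductal log2 fold change was -3.83 ± 0.36 against stromal macrophages (adjusted p = 2.62e-05), -3.93 ± 0.36 against CD11b+ cells (adjusted p = 2.86e-05) and -3.57 ± 0.34 against the CD11b- mean (adjusted p = 1.78e-05). Klf4 had 36.7 and 32.5 CPM in ductal macrophages, 311 and 188 CPM in stromal macrophages, 289.6 and 268 CPM in CD11b+ cells, 172 and 186 CPM in CD103+ cells and 182 and 118 CPM in CD103- cells. Its 3 ductal differences were -2.85 ± 0.32, -3.01 ± 0.32 and -2.24 ± 0.29, in the same order (adjusted p = 8.12e-05, 7.63e-05 and 0.000173). Both genes thus had ductal libraries below all 8 others, and these 6 calls held with every library left out.

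Upstream windows of 250 bases before the RefSeq start (GRCm38.p6) could be read for 33 of the 42 genes. The 9 without a window were Egr1, Egr3, Myc, Cebpd, Ier2, Nfkbiz, Hspa8, Hsp90aa1 and Hsp90ab1. A site of the EGR factors, searched as GCGNGGGCG on both strands, was in 11 of the 33 windows, among them those of Klf2 and Klf4, and in 4.65% of the windows of 27025 genes. The others with the site were Btg2, Nr4a2, Dusp2, Fosl2, Fosb, Zfp36, Gadd45b, Socs3 and Nr4a1. Of these, Btg2, Fosb and Zfp36 were called lower in ductal than in stromal macrophages, Dusp2 was called higher, and the rest were not called. The windows of the members were richer in G and C (median 65.2%, against 52% for all genes), which by itself bears on such a GC-rich motif. The Klf2 window (chr8:72318812-72319061, plus strand) is shown because Klf2 and Klf4 were low in ductal macrophages together, with the site, which starts 199 bases before the start site, in capitals.
Klf2: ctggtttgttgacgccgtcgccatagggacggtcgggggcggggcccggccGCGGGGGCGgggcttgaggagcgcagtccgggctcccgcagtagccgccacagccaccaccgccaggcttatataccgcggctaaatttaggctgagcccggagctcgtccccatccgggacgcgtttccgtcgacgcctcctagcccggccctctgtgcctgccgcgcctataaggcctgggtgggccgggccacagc

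Cebpd, a leucine zipper factor of acute inflammation, had 41 and 69.8 CPM in ductal macrophages, 291 and 303 CPM in stromal macrophages, 126 and 193 CPM in CD11b+ cells, 175 and 103.2 CPM in CD103+ cells and 143 and 67.8 CPM in CD103- cells. Ductal macrophages were lower than stromal macrophages by -2.42 ± 0.42 (adjusted p = 0.00164). That against the CD11b- mean, -1.12 ± 0.37 (adjusted p = 0.043), had overlapping libraries and was lost in 7 of 17 alternatives (adjusted p up to 0.332 without ductal replicate 1, and 0.0548 to 0.112 without CD103+ replicate 1, CD103- replicate 1, ductal replicate 2 or either CD11b+ library). That of Cebpd against CD11b+ cells, -1.52 ± 0.41 (adjusted p = 0.0221), was lost without ductal replicate 1 (0.196) or CD11b+ replicate 2 (0.160). Klf6 had 607 to 787 CPM in ductal macrophages and 1155 to 3123 CPM in the 8 other libraries, and was lower in ductal than in stromal macrophages by -1.82 ± 0.33 (adjusted p = 0.00207). Myc, a driver of growth and proliferation, had 95.9 and 95.3 CPM in ductal and 25 and 60 CPM in stromal macrophages. Its difference of 1.17 ± 0.39 (adjusted p = 0.0422) was lost in 9 of 17 alternatives, among them those without either ductal library, stromal replicate 1 or either CD11b+ library (adjusted p = 0.0663 to 0.175).

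Ier3, whose protein modulates NF-kB and survival signalling, had the widest span in its group. It had 31.2 and 56.2 CPM in ductal macrophages, 761.7 and 743 CPM in stromal macrophages, 353 and 365 CPM in CD11b+ cells, 188 and 109.7 CPM in CD103+ cells and 134 and 88.3 CPM in CD103- cells. Ductal macrophages were the lowest and stromal macrophages the highest, with CD11b+ cells above CD11b- cells and no overlap between any of these. The ductal minus stromal difference of -4.10 ± 0.39 (adjusted p = 2.96e-05) was the most negative of the 42 genes in that comparison. CD11b+ cells exceeded the CD11b- mean by 1.48 ± 0.28 (adjusted p = 0.00356). The ductal difference from the CD11b- mean, -1.55 ± 0.32 (adjusted p = 0.00437), was lost without ductal replicate 1 (adjusted p = 0.0784). The stromal difference of Ier3 from CD11b+ cells, 1.07 ± 0.34 (adjusted p = 0.0417), was lost without either stromal or either CD11b+ library (adjusted p = 0.0786 to 0.186).

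Ier2, a nuclear protein gene of the same response, had 235 and 354 CPM in ductal macrophages, 1135 and 1005 CPM in stromal macrophages, 432 and 491 CPM in CD11b+ cells, 451 and 417 CPM in CD103+ cells and 463 and 330.3 CPM in CD103- cells. Rhob, which encodes an endosomal GTPase, had 42.6 and 50.7 CPM in ductal macrophages, 212 and 163 CPM in stromal macrophages, 67.7 and 80.8 CPM in CD11b+ cells, 47.4 and 38.4 CPM in CD103+ cells and 43.4 and 28.5 CPM in CD103- cells. For both genes the stromal libraries were apart from and above all others. Ductal macrophages were lower than stromal macrophages by -1.86 ± 0.29 for Ier2 (adjusted p = 0.000754) and -2.01 ± 0.28 for Rhob (adjusted p = 0.000346). The stromal difference from the CD11b- mean was 1.37 ± 0.23 for Ier2 (adjusted p = 0.000908) and 2.25 ± 0.22 for Rhob (adjusted p = 2.01e-05). Stromal macrophages exceeded CD11b+ cells for Ier2 by 1.21 ± 0.28 (adjusted p = 0.00976, but 0.0871 and 0.0517 without CD11b+ replicate 1 and 2) and for Rhob by 1.34 ± 0.27 (adjusted p = 0.00435, but 0.0557 without CD11b+ replicate 1).

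The antiproliferative gene Btg2 had 337 and 513 CPM in ductal macrophages and 702 to 1093 CPM in the 8 other libraries. Its ductal minus stromal difference, -1.18 ± 0.28 (adjusted p = 0.00994), and its differences from CD11b+ cells and from the CD11b- mean were lost without ductal replicate 1 (adjusted p = 0.114, 0.0928 and 0.173). Ier5, a regulator of heat shock factor 1, had 297 and 299 CPM in ductal macrophages and 447 to 647 CPM elsewhere. It did not pass the test among populations (adjusted p = 0.0616), although the ductal minus stromal difference was called at -0.88 ± 0.26 (adjusted p = 0.0273, and 0.117 to 0.182 without either ductal library or stromal replicate 1). Gadd45b was lowest in CD103- cells, as given above, and at 241 to 383 CPM in the 8 other libraries.

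The feedback genes split by family member. Dusp2 (chr2:127336159-127338377) and Dusp5 encode nuclear phosphatases of MAP kinases. Dusp2 had 443 and 572 CPM in ductal macrophages, 42.4 and 28.7 CPM in stromal macrophages, 168 and 93 CPM in CD11b+ cells, 472 and 607 CPM in CD103+ cells and 524 and 395 CPM in CD103- cells. Ductal macrophages and both CD11b- populations lay together, CD11b+ cells lower and stromal macrophages lowest, without overlap between the 3 levels. The log2 fold change was 3.84 ± 0.37 for ductal over stromal macrophages (adjusted p = 3.34e-05), 1.96 ± 0.34 for ductal macrophages over CD11b+ cells (adjusted p = 0.00207) and 0.03 ± 0.29 for ductal macrophages over the CD11b- mean (adjusted p = 0.958). CD11b+ cells were lower than the CD11b- mean by -1.93 ± 0.32 (adjusted p = 0.00135). The called differences of Dusp2 held with every library left out.

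Dusp5 had 149 and 131 CPM in ductal macrophages, 26.1 and 60 CPM in stromal macrophages, 269.9 and 214 CPM in CD11b+ cells, 275 and 313 CPM in CD103+ cells and 306 and 185 CPM in CD103- cells. It, too, was lowest in stromal macrophages, where it lay below ductal macrophages by a ductal minus stromal difference of 1.70 ± 0.38 (adjusted p = 0.00684) and below the CD11b- mean by -2.64 ± 0.37 (adjusted p = 0.000236). Dusp1, the family member of broadest action, did not share this. It had 4467 and 4103 CPM in ductal macrophages, 7141 and 4582 CPM in stromal macrophages and 2378 to 3964 CPM in the dendritic cells, and its ductal minus stromal difference was -0.45 ± 0.33 (adjusted p = 0.322). Per kilobase of the table's gene length, Dusp1 was the most abundant of the 42 genes by mean over libraries, at 1225 to 3677 RPKM, ahead of Fos at 700.02 to 2713 RPKM, and Egr3 was the least abundant at 0.644 to 4.19 RPKM. The call of Dusp1 in stromal macrophages over the CD11b- mean, 1.02 ± 0.27 (adjusted p = 0.0126), was lost without stromal replicate 1 (adjusted p = 0.188).

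Zfp36, which encodes tristetraprolin, the protein that marks AU-rich mRNAs for decay, had 1041 and 1131 CPM in ductal macrophages, 4074 and 3239.8 CPM in stromal macrophages, 2224 and 1729 CPM in CD11b+ cells, 1381 and 1388 CPM in CD103+ cells and 1530.5 and 1244 CPM in CD103- cells. The ductal libraries were the lowest and the stromal libraries the highest. Ductal macrophages were lower than stromal macrophages by -1.75 ± 0.29 (adjusted p = 0.00108) and the stromal difference from the CD11b- mean was 1.40 ± 0.23 (adjusted p = 0.000787). The differences of Zfp36 from CD11b+ cells, -0.86 ± 0.28 in ductal macrophages (adjusted p = 0.0478) and 0.89 ± 0.28 in stromal macrophages (adjusted p = 0.0392), were lost in 8 and 7 of 17 alternatives. That of ductal macrophages was lost without either ductal, CD103- or CD11b+ library (adjusted p = 0.0513 to 0.25), and that of stromal macrophages without either ductal library, stromal replicate 1 or either CD11b+ library (adjusted p = 0.0641 to 0.218). Ppp1r15a, which encodes GADD34, the subunit that reverses the translational block of the integrated stress response, had 609 and 399 CPM in ductal macrophages, 1447 and 1093 CPM in stromal macrophages and 304 to 713 CPM in dendritic cells. Its stromal difference from the CD11b- mean was 1.52 ± 0.26 (adjusted p = 0.000922). Socs3, the inhibitor of cytokine receptor signalling, had 543 and 490.3 CPM in ductal macrophages, 504 and 369 CPM in stromal macrophages and 151 to 332 CPM in dendritic cells, and did not pass the test among populations (adjusted p = 0.0599). Its call in ductal macrophages over the CD11b- mean, 0.98 ± 0.29 (adjusted p = 0.0292), was lost without either ductal library, CD103+ replicate 2 or CD103- replicate 2 (adjusted p = 0.0513 to 0.185).

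The 3 NF-kB feedback genes were called higher in ductal macrophages than in the CD11b- mean, and Tnfaip3 was the member most marked in ductal macrophages. This was not particular to ductal macrophages, since CD11b+ cells were called higher than the CD11b- mean for 2 of the 3, Tnfaip3 and Nfkbiz. That call of Tnfaip3 was lost without CD11b+ replicate 1. Tnfaip3 (chr10:19000910-19015410), which encodes the ubiquitin-editing enzyme A20, had 1863 and 1381 CPM in ductal macrophages, 627 and 592 CPM in stromal macrophages, 1134 and 689 CPM in CD11b+ cells, 371 and 505 CPM in CD103+ cells and 374 and 228 CPM in CD103- cells. Both ductal libraries were above all others. The difference was 2.16 ± 0.28 from the CD11b- mean (adjusted p = 0.000203), 1.41 ± 0.35 from stromal macrophages (adjusted p = 0.0109, and 0.0877 without ductal replicate 1) and 0.83 ± 0.34 from CD11b+ cells (adjusted p = 0.107). Nfkbia, the gene of the cytoplasmic inhibitor of NF-kB, had 2409 and 2064 CPM in ductal macrophages, 2089 and 1522 CPM in stromal macrophages, 1759 and 1585 CPM in CD11b+ cells, 1196 and 1489 CPM in CD103+ cells and 1129 and 846 CPM in CD103- cells. Its ductal difference from the CD11b- mean was 0.96 ± 0.25 (adjusted p = 0.0139, and 0.138 without ductal replicate 1).

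Nfkbiz, whose nuclear protein is a cofactor of NF-kB at secondary response genes, had 427 and 452 CPM in ductal macrophages, 885 and 854 CPM in stromal macrophages, 935 and 658 CPM in CD11b+ cells, 207 and 186 CPM in CD103+ cells and 190.1 and 122 CPM in CD103- cells. It stood at 3 levels, with CD11b- cells lowest, ductal macrophages between, and stromal macrophages and CD11b+ cells highest. It exceeded the CD11b- mean by 1.33 ± 0.24 in ductal macrophages (adjusted p = 0.00158), by 2.31 ± 0.23 in stromal macrophages (adjusted p = 2.66e-05) and by 2.19 ± 0.23 in CD11b+ cells (adjusted p = 8.25e-05). For Nfkbiz the ductal minus stromal difference, -0.98 ± 0.28 (adjusted p = 0.0231), was lost when any of the 4 macrophage libraries was left out (adjusted p = 0.0514 to 0.138). The ductal minus CD11b+ difference, -0.86 ± 0.28 (adjusted p = 0.0498), was lost in 8 of 17 alternatives, among them those without either ductal, CD11b+ or CD103+ library or stromal replicate 2 (adjusted p = 0.0536 to 0.306).

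A kappa B site, the element that NF-kB binds, was found on either strand in 10 of the 33 upstream windows of the members and in 7.01% of those of all genes. The 10 count both Hspa1a and Hspa1b, whose windows share 247 of 250 bases. The fixed bases of the searched pattern are G and C, so the higher GC content of the members' windows bears on this motif as well. The windows of Nfkbia (chr12:55492648-55492897, minus strand) and Tnfaip3 (chr10:19015411-19015660, minus strand) are shown as those of NF-kB feedback genes with a window. Of the 8 other members with the site, Fos, Fosb, Egr2, Ier3, Hspa1a and Hspa1b had their lowest means in ductal macrophages, and the remaining 2 were Fosl2 and Hspe1. Capitals mark the kappa B sites, which start 29 bases before the start site in Nfkbia and 125 and 12 bases before it in Tnfaip3.
Nfkbia: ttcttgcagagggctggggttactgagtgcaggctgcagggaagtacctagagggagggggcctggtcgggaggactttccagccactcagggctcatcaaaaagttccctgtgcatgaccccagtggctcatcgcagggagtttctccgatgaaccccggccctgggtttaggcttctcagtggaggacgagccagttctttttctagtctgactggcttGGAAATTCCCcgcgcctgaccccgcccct
Tnfaip3: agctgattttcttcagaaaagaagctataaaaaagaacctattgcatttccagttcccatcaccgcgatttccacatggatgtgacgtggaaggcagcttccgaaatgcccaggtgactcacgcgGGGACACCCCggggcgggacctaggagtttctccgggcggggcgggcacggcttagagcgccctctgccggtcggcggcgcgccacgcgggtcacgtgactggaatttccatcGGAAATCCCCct

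Of the 4 inducible heat shock genes, Hspa1a, Hspa1b and Dnajb1 were lower in ductal than in stromal macrophages. The HSP70 genes were also lower than in CD11b+ cells and the CD11b- mean. Hspa1a (chr17:34969359-34972156) and Hspa1b (chr17:34956429-34959238) encode the stress-induced HSP70. Hspa1a had 242 and 117 CPM in ductal macrophages, 1622 and 764 CPM in stromal macrophages, 1383 and 628 CPM in CD11b+ cells, 776 and 379 CPM in CD103+ cells and 772 and 743 CPM in CD103- cells. Hspa1b had 242 and 141 CPM in ductal macrophages, 1389 and 517 CPM in stromal macrophages, 2602 and 705 CPM in CD11b+ cells, 755 and 363 CPM in CD103+ cells and 649.8 and 813 CPM in CD103- cells. The ductal libraries were below all others for both genes, and replicates differed widely outside the CD103- cells. Of the 80-base stretches of these transcripts, 51.6% of those in Hspa1a also occur in Hspa1b and 54.7% of those in Hspa1b in Hspa1a, so that the split of reads between them is uncertain.

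The ductal minus stromal difference was -2.74 ± 0.54 for Hspa1a (adjusted p = 0.00341), a call that held with every library left out, and -2.32 ± 0.65 for Hspa1b (adjusted p = 0.0199), which was lost without ductal replicate 1, ductal replicate 2 or stromal replicate 1 (adjusted p = 0.0699 to 0.139). The ductal difference from CD11b+ cells was -2.49 ± 0.54 for Hspa1a (adjusted p = 0.00701) and -3.11 ± 0.67 for Hspa1b (adjusted p = 0.00667), and both were lost without ductal replicate 2 or CD11b+ replicate 1 (adjusted p = 0.0688 to 0.071). From the CD11b- mean it was -1.89 ± 0.49 for Hspa1a (adjusted p = 0.0142, and 0.138 without ductal replicate 2) and -1.74 ± 0.58 for Hspa1b (adjusted p = 0.0454, and 0.0621 to 0.258 without either ductal or CD103- library or CD103+ replicate 1).

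Dnajb1, which encodes an HSP40 partner of HSP70, had 118 and 104 CPM in ductal macrophages, 577 and 361 CPM in stromal macrophages, 149 and 125 CPM in CD11b+ cells, 171 and 141 CPM in CD103+ cells and 169.8 and 138 CPM in CD103- cells. It was high in stromal macrophages alone, unlike Hspa1a and Hspa1b. It differed by -2.08 ± 0.28 between ductal and stromal macrophages (adjusted p = 0.000312). Stromal macrophages exceeded CD11b+ cells by 1.77 ± 0.28 (adjusted p = 0.00106) and the CD11b- mean by 1.60 ± 0.22 (adjusted p = 0.000257), with each call held under every left-out library. Hsph1, a nucleotide exchange factor of HSP70, had 55.6 and 35.6 CPM in ductal macrophages and 51.4 to 114 CPM elsewhere, and did not pass the test among populations (adjusted p = 0.116).

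Heat shock factor 1 binds inverted repeats of GAA. The pair GAANNTTC was found in 5 of the 33 upstream windows, 3 of them among the 6 heat shock genes with a window, and in 6.78% of all windows. Both Hspa1a and Hspa1b, with nearly identical windows, are among the 3. The arrangement of 3 units, GAANNTTC followed by NNGAA, was in 1 member, Hspe1, and in 0.400% of all windows. Both Hspa1a and Hspa1b were low in ductal macrophages, and the part of reads shared between them in this was not tested. Their windows (chr17:34972157-34972406 and chr17:34959239-34959488, both minus strand) have 247 of 250 bases identical. In both the pair, in capitals, starts 104 bases before the start site. The window of Hspe1 (chr1:55087898-55088147, plus strand) lies within the neighbouring Hspd1, which is transcribed the other way and overlaps Hspe1 by 96 bases. Its capitals mark 2 overlapping matches of the 3-unit motif, 1 on each strand, that start 89 and 84 bases before the start site.
Hspa1a: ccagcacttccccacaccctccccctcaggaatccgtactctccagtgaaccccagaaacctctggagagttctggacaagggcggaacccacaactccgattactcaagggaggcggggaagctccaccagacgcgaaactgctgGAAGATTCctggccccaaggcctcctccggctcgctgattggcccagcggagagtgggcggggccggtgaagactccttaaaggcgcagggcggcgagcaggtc
Hspa1b: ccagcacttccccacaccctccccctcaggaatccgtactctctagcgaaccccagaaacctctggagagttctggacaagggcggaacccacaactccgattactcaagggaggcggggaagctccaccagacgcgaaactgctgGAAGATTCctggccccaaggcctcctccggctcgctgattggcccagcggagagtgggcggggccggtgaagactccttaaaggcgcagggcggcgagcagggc
Hspe1: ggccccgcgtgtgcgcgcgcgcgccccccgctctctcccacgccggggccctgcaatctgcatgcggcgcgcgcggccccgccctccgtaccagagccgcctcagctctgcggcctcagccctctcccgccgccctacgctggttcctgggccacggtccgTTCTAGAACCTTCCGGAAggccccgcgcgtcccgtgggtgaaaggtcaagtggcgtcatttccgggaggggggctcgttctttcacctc

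Of the 5 abundant and mitochondrial chaperones, Hspa8 and Hsp90aa1 were lower in ductal than in stromal macrophages. Hspa8, which encodes the constitutive HSC70, had 397 and 335 CPM in ductal macrophages, 1044 and 923 CPM in stromal macrophages, 503 and 412 CPM in CD11b+ cells, 405 and 425 CPM in CD103+ cells and 464 and 419 CPM in CD103- cells. Hsp90aa1, the inducible HSP90 gene, had 144 and 137 CPM in ductal macrophages, 829.9 and 411 CPM in stromal macrophages, 430.3 and 282 CPM in CD11b+ cells, 263 and 218 CPM in CD103+ cells and 215 and 352 CPM in CD103- cells. The stromal libraries were apart from all others for Hspa8 and overlapped those of CD11b+ cells for Hsp90aa1. The ductal minus stromal difference was -1.43 ± 0.24 for Hspa8 (adjusted p = 0.00134) and -2.14 ± 0.38 for Hsp90aa1 (adjusted p = 0.00183). The stromal difference from the CD11b- mean was 1.20 ± 0.20 for Hspa8 (adjusted p = 0.000761) and 1.25 ± 0.31 for Hsp90aa1 (adjusted p = 0.00788, but 0.206 without stromal replicate 1).

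Hsp90ab1, the constitutive HSP90 gene, had its highest level in CD11b+ cells, at 1798 and 2077 CPM, against 1035 to 1262 CPM in the 8 other libraries. Ductal macrophages were lower than CD11b+ cells by -0.90 ± 0.25 (adjusted p = 0.0225), a call lost without either ductal or either CD11b+ library (adjusted p = 0.0617 to 0.133). Hspe1 and Hspd1, the co-chaperonin and chaperonin of the mitochondrial matrix, were low in comparison, and Hspe1 had 47.8 and 62.4 CPM in ductal macrophages, 61.8 and 49.4 CPM in stromal macrophages, 98.9 and 79.3 CPM in CD11b+ cells, 34.9 and 30.4 CPM in CD103+ cells and 29.3 and 55.6 CPM in CD103- cells. CD11b+ cells exceeded the CD11b- mean for Hspe1 by 1.26 ± 0.26 (adjusted p = 0.0049, and 0.0743 without CD11b+ replicate 1). Hspd1 ranged over 49.4 to 117 CPM and did not pass the test among populations (adjusted p = 0.0548), and its call in ductal macrophages over the CD11b- mean, 0.75 ± 0.26 (adjusted p = 0.0482), was lost in 11 of 17 alternatives.

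Replicates of a population differed in these genes by a median of 0.33 log2 units in ductal macrophages, 0.43 in stromal macrophages, 0.26 in CD11b+ cells, 0.27 in CD103+ cells and 0.60 in CD103- cells. For genes at or above the members' lower quartile of level these medians were 0.22, 0.33, 0.24, 0.38 and 0.36. The 42 genes were more variable than that set in all populations but CD103+ cells, by little in CD11b+ cells. Over all genes tested the medians were 0.36, 0.46, 0.34, 0.36 and 0.42, above those of the 42 genes in all populations but CD103- cells. Replicate 1 was the higher for 35 of the 42 genes in CD103- cells, for 32 in stromal macrophages and for 30 in CD11b+ cells, whereas over all genes replicate 1 was the higher for 49.96%, 55.9% and 51.0%. The count was 24 in CD103+ cells and 21 in ductal macrophages, beside 46.3% and 49.2% of all genes. Hspa1a was higher in replicate 1 by 1.05 in ductal macrophages, 1.08 in stromal macrophages, 1.14 in CD11b+ cells, 1.03 in CD103+ cells and 0.06 in CD103- cells (log2 CPM). For Hspa1b these differences were 0.78, 1.43, 1.88, 1.06 and -0.32.

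**Figure D4:**
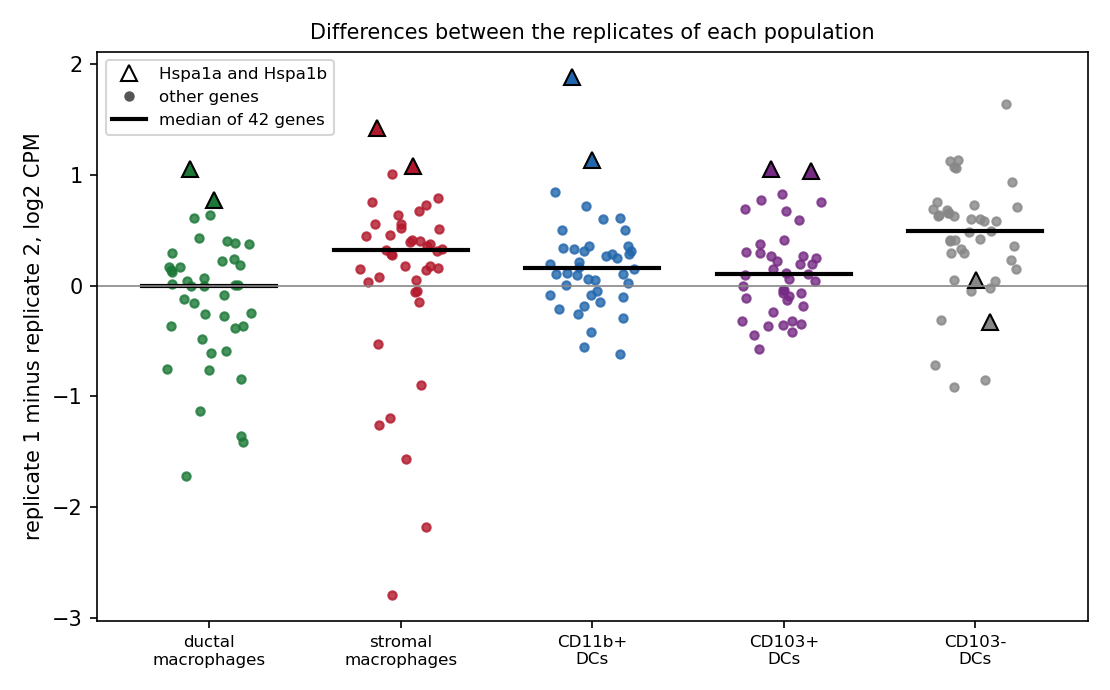
Difference between replicates 1 and 2 (log2 CPM) of each of the 42 genes in each population, with the median as a black bar and Hspa1a and Hspa1b as triangles. The medians lie near 0 in ductal macrophages and highest in CD103- cells, and both HSP70 genes were above 0 in 4 of the 5 populations.

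Other genes of the same pathways were counted in ductal against stromal macrophages, where 14.3% of all genes were lower and 16.3% higher, with a median of -0.10. Of 32 other early response genes, 10 were lower and 7 higher in ductal than in stromal macrophages (3 and 4 lower without ductal replicate 1 and 2), with a median log2 fold change of -0.26. Plk2, a kinase gene of the serum response, was lower by -2.94 ± 0.32 (adjusted p = 6.47e-05), whereas Ptgs2, which encodes cyclooxygenase 2, was higher by 3.84 ± 0.45 (adjusted p = 0.000116), the kinase gene Sgk1 by 2.88 ± 0.40 (adjusted p = 0.000344) and the AP-1 repressor gene Jdp2 by 2.42 ± 0.26 (adjusted p = 6.26e-05). Of 25 other feedback regulators, 11 were higher and 3 lower (1 lower without ductal replicate 1, 5 without stromal replicate 1), with a median of 0.71. Among the higher were Tnfaip2 at 4.11 ± 0.39 (adjusted p = 2.89e-05), the NF-kB inhibitor gene Nfkbie at 3.21 ± 0.27 (adjusted p = 1.62e-05) and Nfkb2 at 2.16 ± 0.22 (adjusted p = 5.00e-05). Zfp36l1 was lower, by -1.88 ± 0.27 (adjusted p = 0.000424). The calls of all genes named in this paragraph held with every library left out.

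Of 34 other heat shock proteins and cochaperones, 7 were lower and 3 higher in ductal than in stromal macrophages, a share near the 30.6% of all genes called in either direction, and their median was 0.01. These counts were 2 and 0 without ductal replicate 1. There were 2 lower without ductal replicate 2, 4 lower without stromal replicate 1 and 1 higher without stromal replicate 2. Of 25 genes of endoplasmic reticulum stress and the integrated stress response, 13 were higher and 4 lower (2 lower without ductal replicate 1), with a median of 1.16. Those higher included the chaperone gene Hyou1 at 2.68 ± 0.24 (adjusted p = 2.28e-05), the sensor gene Atf6 at 2.56 ± 0.32 (adjusted p = 0.000187) and Sdf2l1 at 2.28 ± 0.30 (adjusted p = 0.000249), calls that held with every library left out. Of 22 kinases and factors upstream of immediate early genes, 6 were higher and 2 lower, beside 16.3% and 14.3% of all genes, with a median of 0.21. Without ductal replicate 1, ductal replicate 2 or stromal replicate 2 there were 3 higher, and without ductal replicate 1, ductal replicate 2 or stromal replicate 1 there were 0 lower. The gene of the p38 kinase activator MKK3, Map2k3, was higher in ductal macrophages by 1.62 ± 0.28 (adjusted p = 0.00152).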

How the data were processed

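RNA was measured by RNA-seq in 10 libraries of 5 sorted populations. The authors deposited raw counts per gene, made with featureCounts on mm10 (GRCm38) per the submitters' processing notes; aligner, gene annotation and strand setting: not given in the sources used here, so antisense and overlapping genes are uncertain. Gene IDs were named from RefSeq (25275) or GENCODE (18); the 1886 left unnamed (0.386% to 2.32% of counts) stayed in the fit. The tests used edgeR 4.0.16 under R 4.3.3: filterByExpr (minimum count 10, minimum total 15), TMM factors, and 1 quasi-likelihood fit of 5 populations with 5 residual degrees of freedom. P-values were adjusted by Benjamini-Hochberg over all 15681 genes tested and called under 0.05. They weigh a difference between populations against the spread between replicates, estimated over all 5 populations. The standard errors (SE) were back-calculated as the absolute log2 fold change divided by the square root of the F statistic of the test. The CD11b- mean weights CD103+ and CD103- equally. CPM used TMM-adjusted totals, on which 3 counts are 0.119 to 0.683 CPM, log2 CPM a prior count of 2, and RPKM, computed here, the gene lengths of the deposited table.

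The members and gene lists were chosen with earlier results of these data known. Values in every library are given for up to 3 members per role, those of widest range between population means. Other pathway genes are up to 4 per list of largest called difference with a mean of at least 30 CPM. Alternatives were RLE and upper-quartile factors, no filter, no mitochondrially encoded genes, DESeq2 1.42.0, populations alone, a replicate block and each library left out. The scripts were tested on simulated data.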

Additional observations from a re-analysis of the deposited data

How the results depend on the processing

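Of 123 called differences of the 42 genes, recomputed under 17 alternatives each (2091 values), 1868 kept direction and call, 223 kept direction but not the call, and 0 reversed; 63 calls were kept under all 17. Leaving out the mitochondrially encoded genes kept 121 and DESeq2 all 123. With 1 library left out, that population's lone library is assumed to vary like the others, and 36 calls were lost without ductal replicate 1. The cause of these losses beyond the smaller number of samples was not tested. The counts ranged, over left-out libraries, in ductal minus stromal from 3 to 5 higher (5 with all libraries) and 20 to 25 lower, in ductal minus CD11b+ from 1 to 2 higher and 10 to 21 lower, in ductal minus CD11b- from 2 to 6 and 5 to 19, in stromal minus CD11b+ from 3 to 12 and 4 to 6, in stromal minus CD11b- from 13 to 23 and 4 to 6, and in CD11b+ minus CD11b- from 4 to 15 and 1 to 3. The patterns ranged from 4 to 13 genes lower in ductal than in all 3 others, 3 to 12 higher in stromal, 2 to 3 lower in stromal, and 28 to 38 differing among populations.

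Other settings moved 4 counts past 1.5 times. Ductal minus stromal higher was 3 with upper-quartile factors and 3 with populations alone. Ductal minus CD11b+ higher was 2 without the filter, 3 by DESeq2, 4 with populations alone and 2 with the replicate block, against 1. CD103+ minus CD103- higher was 1 without the filter and 1 by DESeq2, against 0. Higher in ductal than in all 3 others was 1 by DESeq2 and 1 with populations alone, against 0, settings applied to that count after seeing the data. Upper-quartile factors took the median over all genes to -0.22 for ductal minus stromal, against -0.10. Replicate numbers were not taken to pair the samples, since the labels name no shared origin and not every pair of populations correlated above 0.1. Deviations of same-numbered libraries correlated at 0.102 to 0.126 among ductal, stromal and CD11b+ cells and at 0.177 between the CD11b- populations, and at -0.176 to -0.124 across these sets. The replicate block lost 9 of 123 calls. Egr3 had 4 to 133 counts a library, and the part of depth in its result was not tested.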
